A study of Mus musculus with 18 samples.

Results

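Macrophages of the peritoneal cavity were set against 6 other tissue-resident macrophage populations in C57BL/6 mice, by messenger RNA sequencing. The peritoneal population was taken by the title and tissue label of its samples, and it accounts for 2 of the 14 macrophage libraries and 2 of the 18 libraries of the series. The other macrophages were brain microglia, macrophages from ileum (small intestine) and colon (large intestine), red pulp macrophages from spleen, liver Kupffer cells and lung macrophages, with 2 libraries of each. Monocytes and neutrophils of the bone marrow, also with 2 libraries each, entered the model for its estimate of the spread and were set beside the peritoneal values without a test. The sources used here give the strain and the tissue of every group, and give no treatment, age, genotype or sorting gate.

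Each library was made from sorted cells, so a level stands for the average over a sorted population. In such bulk samples fewer cells of a type and less RNA per cell cannot be told apart. The titles place peritoneal macrophages, microglia and both intestinal populations in experiment 1 and the remaining populations in experiment 2. No population was made in both, so population and experiment cannot be told apart, and every comparison is given a second time against the 3 other macrophage populations of experiment 1. The replicates are not stated to come from separate animals, and p-values measure only the spread between these libraries.

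Resident macrophages of the peritoneal cavity float in serous fluid and are among the most easily collected macrophages of the mouse. The transcription factor Gata6 is known in mice as the regulator that gives the large resident cells their identity, and retinoic acid, made from vitamin A in the omentum and peritoneal lining, is known to sustain it. Retinoic acid acts through pairs of nuclear receptors, a retinoic acid receptor with a retinoid X receptor, which bind DNA at paired half-sites. The cells are known for phagocytosis, for lipid mediators made by lipoxygenases, for clot formation on the peritoneal surface and for a low display of MHC class II. A second, smaller peritoneal population, derived from monocytes and higher in MHC class II, is known to share the cavity.

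The 4 genes given as markers of resident peritoneal macrophages were high in both peritoneal libraries and at 0 or low in the other macrophages. The unit is the normalised read, as deposited, and values are listed first for peritoneal libraries 1 and 2 and then as the lowest, median and highest of the 12 other macrophage libraries, called the others here. Gata6, the transcription factor described above, gave 193 and 149 normalised reads in peritoneal macrophages and 0, 1.00 and 8.99 in the others, a log2 fold change of 6.33 ± 0.56 (adjusted p = 1.46e-07, 5.88 within experiment 1). For Selp, the cell adhesion molecule P-selectin, the values were 572 and 690.1 normalised reads in the peritoneal libraries and 0, 0.520 and 6.06 in the others, and the log2 fold change was 8.26 ± 0.59 (adjusted p = 1.05e-08, 8.28 within experiment 1). Prg4, the lubricant proteoglycan also called lubricin, stood at 1907 and 1664 normalised reads in peritoneal macrophages, against 0, 0 and 34.3 in the others, with a log2 fold change of 9.33 ± 0.59 (adjusted p = 2.23e-09, 9.18 within experiment 1). For these genes, and for Alox15 below, both peritoneal libraries lay above all 12 others without overlap. Fold changes were taken on log2(value + 1.11), which understates the change of low genes, and are given with the standard error of the model. A gene was called, and said to rise or fall, at an adjusted p (limma, Benjamini-Hochberg over 11998 tested genes) under 0.05 and a log2 fold change of 1 or more in either direction. Of the 20 peritoneal markers listed for this comparison, 20 rose against the mean of the 6 populations, where 7.16% of all tested genes rose, and 20 rose against experiment 1, where 7.01% did. Of these markers 18 lay above all 12 others in both peritoneal libraries, as 5.66% of all tested genes did, and 17 were called against each of the 6 populations, as were 1.22% of all. The list was drawn up with earlier results of these libraries known, so its direction is no independent evidence.

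Genes that macrophages in general express did not move together. Of 12 shared macrophage genes, 4 rose, 4 fell and 4 did not pass (median log2 fold change -0.41, against -0.15 over all tested genes). Against experiment 1, 4 rose and 5 fell (median -0.27, against -0.18 over all). Of all tested genes 13.8% fell, and 14.4% fell within experiment 1. Adgre1, which codes for the F4/80 antigen, measured 1535 and 1333 normalised reads in the peritoneal libraries, against 105, 517 and 812 in the others (log2 fold change 1.76 ± 0.25, adjusted p = 3.73e-05, 1.41 within experiment 1). Itgam, the integrin chain CD11b, gave 516 and 653 normalised reads in peritoneal macrophages and 4.43, 73.7 and 347 in the others, a log2 fold change of 3.52 ± 0.33 (adjusted p = 3.04e-07, 1.61 within experiment 1). For Cd68, a lysosomal membrane protein, the values were 154 and 137 normalised reads in the peritoneal libraries and 418, 619 and 916 in the others, and the log2 fold change was -2.10 ± 0.26 (adjusted p = 9.42e-06, -2.16 within experiment 1). Adgre1 and Itgam were above all 12 others in both peritoneal libraries, and Cd68 was below all of them. Csf1r, the receptor of macrophage colony-stimulating factor, did not pass, with 1663 and 1678 in the peritoneal libraries against 258, 3206 and 7723 in the others and a log2 fold change of -0.58, and was called against experiment 1 at -1.07. Spi1, the macrophage lineage factor PU.1, had a log2 fold change of -0.24 ± 0.20 and did not pass. Reads in genes numbered 601299 and 808274 in peritoneal libraries 1 and 2, over a range of 588172 to 1580370 in the series. Only splenic library 2, at 588172, held fewer than peritoneal library 1. Genes at 0 numbered 5836 and 5390 in the peritoneal libraries and 5341 and 5375 in microglia. They numbered 3792 to 5471 in the splenic, Kupffer and lung libraries and 3043 to 3938 in the intestinal ones. The part of depth in the calls was not tested. A gene with no read is limited to 3 reads, which is 3.78 and 2.71 normalised reads in peritoneal libraries 1 and 2, for counting error only. For a gene at 0 in both peritoneal libraries no log2 fold change is given, and its fold is a lower bound that sets the mean of the other populations against this limit. That mean is taken over normalised reads, so a single high population can set the fold. The adjusted p printed beside the fold belongs to the model, which averages log2 values. A list member set at its bound can thus also lie below its log2 fold change. The peritoneal column totals, 966971 and 938759, were the lowest of the 14 macrophage libraries.

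Against the mean of the 6 populations 859 genes rose in peritoneal macrophages (7.16%) and 1653 fell (13.8%). Against experiment 1 the counts were 841 (7.01%) and 1724 (14.4%). The median log2 fold change over all tested genes was -0.15, and -0.18 within experiment 1. Under quantile normalization, equal library totals and voom weights this median became 0.01, 0.05 and 0.07, and 0.04, 0.02 and 0.05 within experiment 1. Among called genes the share that rose was 34.2%, against 47.2%, 45.7% and 58.0% under those scalings, and 32.8% within experiment 1, against 45.7%, 44.0% and 52.2%. The balance of higher and lower genes therefore depends on the scaling, whereas no called gene named here changed direction with it. As a description across genes, which share their libraries and depth, Spearman's rho over the 11998 tested genes was 0.892 between the 2 peritoneal libraries, and averaged 0.699 with splenic and 0.743 with small intestine macrophages, the ends of the range over the 6 populations. Both peritoneal libraries lay above all 12 others for 679 of the tested genes (5.66%) and below all 12 for 502 (4.18%). Leaving out peritoneal library 1 reduced the counts to 467 higher and 866 lower, and within experiment 1 to 502 and 996.

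Taken 1 population at a time, the fewest genes rose in peritoneal macrophages against the intestinal populations. Against small intestine macrophages 614 genes rose (5.12%) and 1505 fell (12.5%), and against large intestine macrophages 652 rose (5.43%) and 1539 fell (12.8%). Genes at 0 were fewer in the intestinal libraries, 3043 to 3938 against 5836 and 5390 in the peritoneal ones, and the part of depth was not tested. Microglia gave 1149 higher (9.58%) and 1414 lower (11.8%), and lung macrophages 1137 (9.48%) and 1512 (12.6%). The counts were 1182 (9.85%) and 1750 (14.6%) against splenic macrophages and 805 (6.71%) and 1388 (11.6%) against Kupffer cells. Genes called higher against each of the 6 populations numbered 146 (1.22%) and those lower against each numbered 155 (1.29%). The 146 became 71 or 81 without peritoneal library 1 or 2, and voom weights gave 240 higher and 84 lower. By the number of populations against which each was also called on its own, the 859 genes higher against the mean comprised 146 with 6, 153 with 5, 158 with 4, 203 with 3, 142 with 2, 56 with 1 and 1 with 0. For the 1653 lower genes these numbers were 155, 264, 326, 432, 367, 100 and 9. Of the 859 higher genes, the highest mean among the 6 other populations was that of microglia for 219 and of lung macrophages for 199. It was that of Kupffer cells for 141, of small intestine for 119, of large intestine for 99 and of splenic macrophages for 82.

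The enzyme genes Alox15, Padi4, Arg1, Ptgis and Hal belong to the 20 genes with the largest rise that were also called against experiment 1 and lay above all 12 others. Alox15, a lipoxygenase of polyunsaturated fatty acids, stood at 6902 and 5791 normalised reads in peritoneal macrophages, against 0, 1.61 and 50.5 in the others, with a log2 fold change of 10.81 ± 0.96 (adjusted p = 1.64e-07, 10.43 within experiment 1). Padi4, which converts arginine to citrulline in histones and other proteins, measured 1659 and 1612 normalised reads in the peritoneal libraries, against 0, 5.52 and 20.2 in the others (log2 fold change 8.24 ± 0.50, adjusted p = 1.33e-09, 9.10 within experiment 1). Arg1, the arginase of the urea cycle, gave 496 and 376 normalised reads in peritoneal macrophages and 0, 1.24 and 21.8 in the others, a log2 fold change of 7.24 ± 0.66 (adjusted p = 2.18e-07, 7.79 within experiment 1). For each the lowest peritoneal library exceeded the highest other library by a wide margin. For Ptgis, prostacyclin synthase, the values were 1358 and 1398 normalised reads in the peritoneal libraries and 0, 3.77 and 197 in the others, and the log2 fold change was 6.99 ± 0.77 (adjusted p = 2.07e-06, 8.88 within experiment 1). Hal, histidine ammonia-lyase, stood at 161 and 179 normalised reads in peritoneal macrophages, against 0, 0 and 5.20 in the others, with a log2 fold change of 6.89 ± 0.71 (adjusted p = 9.38e-07, 7.03 within experiment 1). Ptgis was not near 0 everywhere else, since splenic macrophages averaged 193 ± 6.29 (SD, n = 2) and Kupffer cells 46.4 ± 28.5.

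A second group among the 20 codes for secreted proteins and their carriers. Tgfb2, a TGF-beta ligand, measured 513 and 485 normalised reads in the peritoneal libraries, against 0, 1.37 and 5.06 in the others (log2 fold change 7.72 ± 0.70, adjusted p = 2.10e-07, 7.94 within experiment 1). Ltbp1, which binds latent TGF-beta in the matrix, gave 493 and 413 normalised reads in peritoneal macrophages and 0, 0.923 and 7.75 in the others, a log2 fold change of 7.67 ± 0.61 (adjusted p = 4.51e-08, 7.67 within experiment 1). For Wnt2, a secreted Wnt ligand, the values were 478 and 385 normalised reads in the peritoneal libraries and 0, 0.464 and 28.3 in the others, and the log2 fold change was 7.58 ± 0.53 (adjusted p = 8.56e-09, 8.08 within experiment 1). All 3 were at or near 0 in most other macrophage libraries. F5, coagulation factor V, stood at 299.9 and 482 normalised reads in peritoneal macrophages, against 0, 0.780 and 3.54 in the others, with a log2 fold change of 7.63 ± 0.55 (adjusted p = 1.31e-08, 7.44 within experiment 1). Saa3, an acute-phase apolipoprotein, measured 1448 and 1214 normalised reads in the peritoneal libraries, against 0, 3.44 and 47.6 in the others (log2 fold change 8.25 ± 0.98, adjusted p = 5.49e-06, 7.73 within experiment 1). Prtn3, a serine protease of neutrophil granules, gave 945 and 922 normalised reads in peritoneal macrophages and 0, 5.02 and 24.8 in the others, a log2 fold change of 7.28 ± 0.78 (adjusted p = 1.48e-06, 7.38 within experiment 1). Again both peritoneal libraries were above every other macrophage library. For Serpinb2, plasminogen activator inhibitor of the clade B serpins, the values were 727 and 635 normalised reads in the peritoneal libraries and 0, 1.05 and 11.1 in the others, and the log2 fold change was 8.25 ± 0.72 (adjusted p = 1.40e-07, 8.19 within experiment 1). Serpinb10, another clade B serpin, stood at 435 and 476 normalised reads in peritoneal macrophages, against 0, 2.12 and 7.96 in the others, with a log2 fold change of 7.34 ± 0.61 (adjusted p = 6.73e-08, 6.76 within experiment 1). Reads of serpins with near-identical copies may be shared between them, and the counting method is unstated.

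Other genes of the 20 code for matrix, junction and receptor proteins. Fn1, the matrix glycoprotein fibronectin, measured 2446 and 2748 normalised reads in the peritoneal libraries, against 8.97, 22.4 and 157 in the others (log2 fold change 6.32 ± 0.33, adjusted p = 2.51e-10, 6.34 within experiment 1). Thbs1, the matricellular protein thrombospondin, gave 350.3 and 284 normalised reads in peritoneal macrophages and 0, 3.43 and 11.1 in the others, a log2 fold change of 6.51 ± 0.76 (adjusted p = 4.32e-06, 5.92 within experiment 1). For Icam2, a ligand of leukocyte integrins, the values were 1153 and 1152 normalised reads in the peritoneal libraries and 3.76, 17.6 and 56.3 in the others, and the log2 fold change was 6.03 ± 0.40 (adjusted p = 3.87e-09, 6.46 within experiment 1). Fn1 and Icam2 were read in all 12 other libraries and were still lower in each of them than in either peritoneal library. Cgnl1, a protein of cell junctions, measured 249 and 183 normalised reads in the peritoneal libraries, against 0, 1.68 and 5.82 in the others (log2 fold change 6.36 ± 0.59, adjusted p = 2.96e-07, 6.39 within experiment 1). Ednrb, an endothelin receptor, gave 680.4 and 488 normalised reads in peritoneal macrophages and 0, 3.31 and 10.1 in the others, a log2 fold change of 7.28 ± 0.71 (adjusted p = 5.01e-07, 6.71 within experiment 1). These, too, did not overlap the others. For Fgfr1, a fibroblast growth factor receptor, the values were 748 and 585 normalised reads in the peritoneal libraries and 0, 5.37 and 19.8 in the others, and the log2 fold change was 6.80 ± 0.66 (adjusted p = 4.99e-07, 7.00 within experiment 1).

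**Figure D1:**
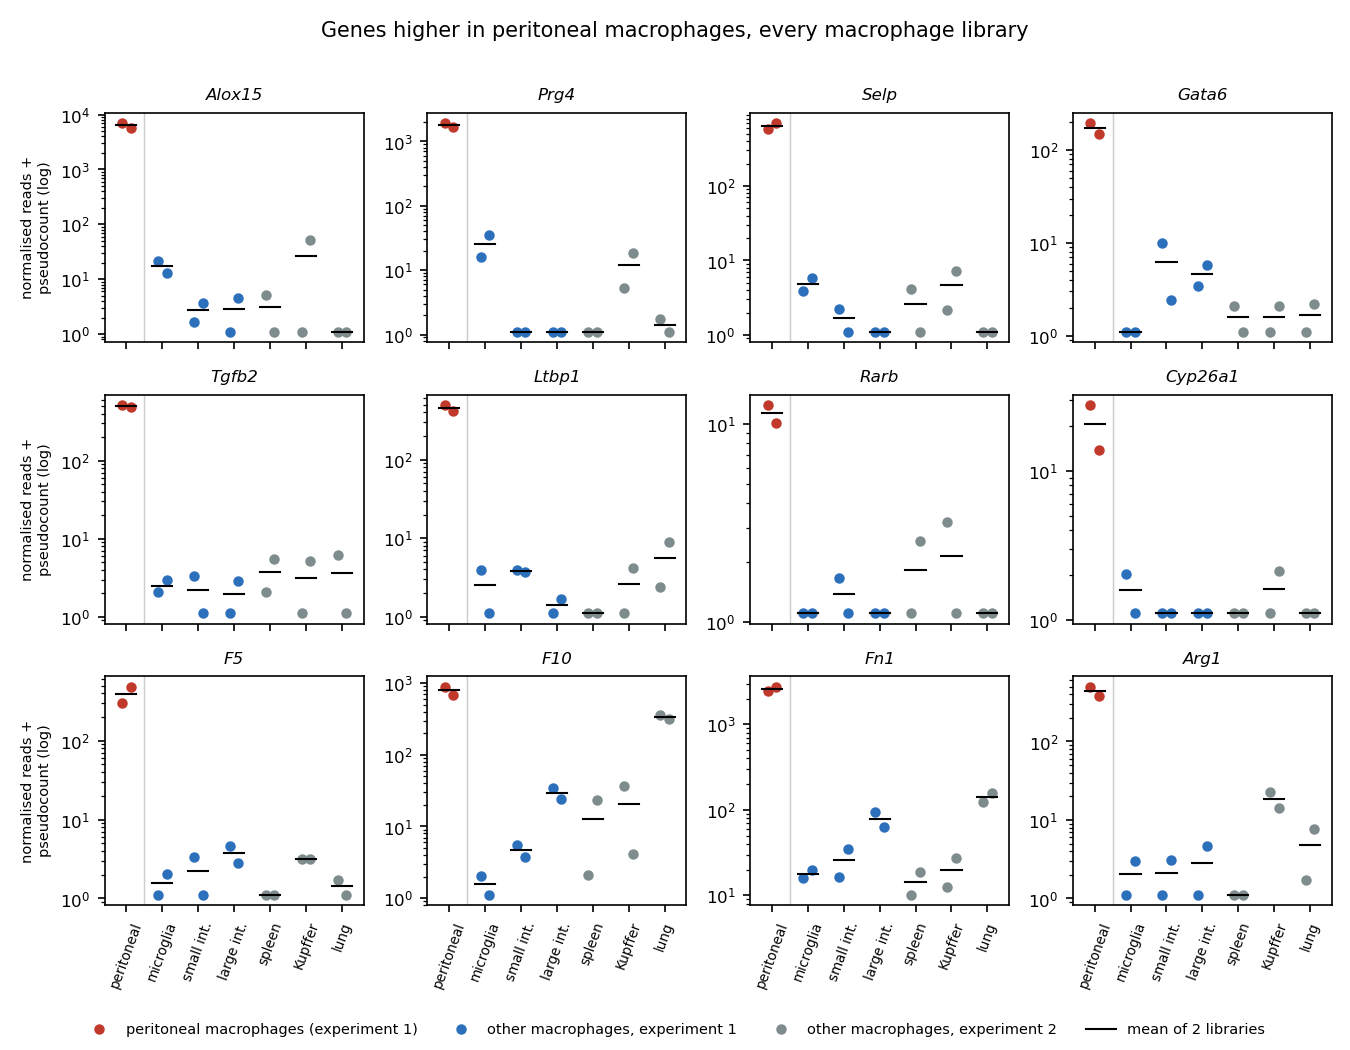
Levels of 12 genes that were higher in peritoneal macrophages, 1 panel a gene. Each point is 1 library, in normalised reads plus the pseudocount of 1.11 on a log axis, with peritoneal macrophages in red, other macrophages of experiment 1 in blue and of experiment 2 in grey, and a bar at the mean of 2 libraries. The red points lie above all others in each panel, with F10 in lung macrophages the closest, and Gata6 stands at 193 and 149 normalised reads in peritoneal macrophages against at most 8.99.

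Transcription factor genes moved in both directions. Of 35 tested members, 11 rose, 10 fell and 14 did not pass (median log2 fold change -0.05, against -0.15 over all tested genes). In experiment 1, 10 rose and 10 fell (median -0.11, against -0.18 over all). Among all tested genes 7.16% rose and 13.8% fell, and 7.01% and 14.4% did within experiment 1. Klf2, a zinc finger factor of quiescent leukocytes, stood at 1458 and 1618 normalised reads in peritoneal macrophages, against 40.9, 102 and 546 in the others, with a log2 fold change of 3.48 ± 0.26 (adjusted p = 1.65e-08, 3.42 within experiment 1). Nfe2, a basic leucine zipper factor of the megakaryocyte lineage, measured 709 and 648 normalised reads in the peritoneal libraries, against 0, 17.7 and 70.1 in the others (log2 fold change 5.51 ± 0.33, adjusted p = 1.33e-09, 6.72 within experiment 1). Bhlhe40, a helix-loop-helix repressor, gave 161 and 163 normalised reads in peritoneal macrophages and 0, 19.4 and 107 in the others, a log2 fold change of 3.37 ± 0.49 (adjusted p = 5.69e-05, 4.39 within experiment 1). Each was above all 12 others in both peritoneal libraries. Pparg, the lipid-sensing nuclear receptor needed by alveolar macrophages, was at 0 in both peritoneal libraries, against 0, 13.3 and 167 normalised reads in the others (at least 15.8-fold lower, adjusted p = 2.63e-05, at least 1.95-fold lower within experiment 1). Nr1h3, the oxysterol receptor LXR alpha, stood at 0 and 8.12 normalised reads in peritoneal macrophages, against 0, 60.1 and 1065 in the others, with a log2 fold change of -4.51 ± 0.50 (adjusted p = 2.17e-06, -2.08 within experiment 1). Batf3, a factor needed by cross-presenting dendritic cells, measured 3.78 and 10.8 normalised reads in the peritoneal libraries, against 33.2, 107 and 159 in the others (log2 fold change -3.47 ± 0.48, adjusted p = 3.10e-05, -3.69 within experiment 1). Batf3 did not overlap the others, whereas Pparg and Nr1h3 reached low levels in at least 1 other library. Klf4 (a zinc finger factor, -0.05 ± 0.36) did not pass. The 11 higher factors became 7 without peritoneal library 1, and the 10 lower within experiment 1 became 5 without peritoneal library 1 or 2.

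Receptors of retinoic acid and an enzyme that breaks it down were higher in peritoneal macrophages, and a transglutaminase was lower. Of 17 tested members of the pathway, 7 rose, 4 fell and 6 did not pass (median log2 fold change 0.44, against -0.15 over all tested genes). The other populations of experiment 1 gave 7 that rose and 3 that fell (median 1.37, against -0.18 over all). Shares of all tested genes were 7.16% and 13.8%, and 7.01% and 14.4% within experiment 1. Rarb, a retinoic acid receptor whose own gene is a known target of retinoic acid, gave 11.3 and 9.03 normalised reads in peritoneal macrophages and 0, 0 and 2.08 in the others, a log2 fold change of 3.07 ± 0.44 (adjusted p = 4.75e-05, 3.24 within experiment 1). For Rarg, another retinoic acid receptor, the values were 64.3 and 158 normalised reads in the peritoneal libraries and 0, 5.56 and 16.1 in the others, and the log2 fold change was 4.19 ± 0.55 (adjusted p = 1.89e-05, 4.76 within experiment 1). Rxrg, a retinoid X receptor, stood at 20.2 and 9.93 normalised reads in peritoneal macrophages, against 0, 0 and 9.27 in the others, with a log2 fold change of 3.52 ± 0.56 (adjusted p = 0.000131, 3.25 within experiment 1). The peritoneal libraries lay above all 12 others for all 3, and Rarb and Rxrg were low genes in every library. Cyp26a1, the cytochrome that degrades retinoic acid and is induced by it, measured 26.5 and 12.6 normalised reads in the peritoneal libraries, against 0, 0 and 1.01 in the others (log2 fold change 3.98 ± 0.41, adjusted p = 1.08e-06, 3.99 within experiment 1). Dhrs3, a reductase that returns retinal to retinol, gave 1469 and 1414 normalised reads in peritoneal macrophages and 85.7, 464 and 816 in the others, a log2 fold change of 1.95 ± 0.24 (adjusted p = 8.88e-06, 1.37 within experiment 1). For Tgm2, a transglutaminase known as a retinoic acid target in macrophages, the values were 17.6 and 34.3 normalised reads in the peritoneal libraries and 55.4, 236 and 601 in the others, and the log2 fold change was -2.97 ± 0.24 (adjusted p = 4.29e-08, -1.75 within experiment 1). Cyp26a1 and Dhrs3 were above and Tgm2 was below all 12 others. Among the macrophage libraries, only the peritoneal ones brought Rarb and Cyp26a1 over the filter of 5.53 normalised reads. Their entry into the test and their rise are thus not independent. The partner receptor Rxra (0.44 ± 0.20, 1.66 and passing within experiment 1) and Rxrb (0.37 ± 0.27) did not pass against the 6 populations. The 7 higher members became 3 without peritoneal library 1 and 3 under the stricter filter on low values, and the 4 lower became 2 and 1 without peritoneal library 1 and 2 and 2 under that filter. The 7 higher within experiment 1 became 4 under that filter and the 3 lower became 1 without peritoneal library 2. Crabp1, Crabp2 and Stra6 were not analysed here.

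The promoters of Rarb and Cyp26a1 are shown because they held the retinoic acid element described below. Among the 264 of 357 named genes with an entry in the promoter table, no other gene held it. The promoter of Wnt2 is shown because a GATA motif lies just ahead of its start. Sequences are from RefSeq (GRCm38.p6), each running from 250 bases before to 50 bases after the start of the gene, 5′ to 3′ on the strand of the gene, with the match in capitals. The expression values rest on another build, mm9. The element searched was a pair of half-sites, in the same direction with 5 bases between them, on either strand. The canonical half-site AGGTCA was accepted, as was AGTTCA, and the same pair with a leading G, that is GGGTCA or else the form GGTTCA.
Rarb, chr14:16575427-16575726, minus strand: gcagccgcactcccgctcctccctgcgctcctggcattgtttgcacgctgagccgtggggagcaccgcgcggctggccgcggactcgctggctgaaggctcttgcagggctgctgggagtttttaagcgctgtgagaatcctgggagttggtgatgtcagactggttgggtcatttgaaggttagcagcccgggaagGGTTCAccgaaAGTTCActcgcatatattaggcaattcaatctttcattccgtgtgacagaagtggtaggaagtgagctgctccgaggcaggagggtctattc
Cyp26a1, chr19:37697558-37697857, plus strand: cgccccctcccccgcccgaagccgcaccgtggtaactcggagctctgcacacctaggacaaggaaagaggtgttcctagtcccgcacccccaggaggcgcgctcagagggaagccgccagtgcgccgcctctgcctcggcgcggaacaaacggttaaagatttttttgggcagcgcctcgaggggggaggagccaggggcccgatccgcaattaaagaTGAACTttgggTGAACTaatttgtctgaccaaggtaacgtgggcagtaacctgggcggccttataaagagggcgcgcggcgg
Wnt2, chr6:18030396-18030695, minus strand: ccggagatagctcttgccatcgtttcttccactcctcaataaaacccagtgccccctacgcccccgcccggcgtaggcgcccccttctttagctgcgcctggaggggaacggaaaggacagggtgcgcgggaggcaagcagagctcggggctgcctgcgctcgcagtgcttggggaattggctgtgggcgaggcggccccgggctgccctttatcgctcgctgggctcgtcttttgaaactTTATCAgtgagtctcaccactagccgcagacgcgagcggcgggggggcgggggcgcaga

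The element lay 53 to 37 bases before the start of Rarb, and 32 to 16 bases before that of Cyp26a1, there on the opposite strand. Of 32851 promoters of this length in the table, 32 (0.0974%) held it, among them 2 of the 14 tested retinoic acid genes that have an entry. These 2 matches rest on the accepted forms AGTTCA and GGTTCA, without AGGTCA or GGGTCA. They follow from the forms accepted and are no independent evidence. The GATA motif, AGATAA or TGATAA on either strand, lay 9 to 4 bases before the start of Wnt2, on the opposite strand. It is a common sequence, held by 6115 promoters (18.6%), by 57 of the 264 named genes with an entry, and by 5 of the 13 entries among the 20 genes with the largest rise (Saa3, Serpinb10, Serpinb2, Tgfb2 and Wnt2). Of the 11 entries among the 15 genes with the largest fall, 3 held it (Cd300c2, Hba-a1 and Hba-a2). A match is a description of these letters, and no binding was measured.

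In the TGF-beta and BMP pathway a ligand and its binding protein were higher in peritoneal macrophages and a pair of receptors was lower. Of 29 tested members, 4 rose, 7 fell and 18 did not pass (median log2 fold change -0.16, against -0.15 over all tested genes). Set against experiment 1 alone, 3 rose and 6 fell (median -0.41, against -0.18 over all). The shares over all tested genes were 7.16% higher and 13.8% lower, and 7.01% and 14.4% within experiment 1. Tgfb2 and Ltbp1, given above, were the members with the largest rise. Acvrl1, a receptor of the family that binds BMP ligands, was at 0 in both peritoneal libraries, against 61.1, 216 and 346 normalised reads in the others (at least 61.8-fold lower, adjusted p = 2.01e-12, at least 59.4-fold lower within experiment 1). Tgfbr1, the signalling receptor of TGF-beta, measured 40.3 and 69.5 normalised reads in the peritoneal libraries, against 44.9, 258 and 2010.3 in the others (log2 fold change -2.17 ± 0.23, adjusted p = 1.68e-06, -3.63 within experiment 1). Smad3, a signal transducer of the pathway, gave 84.4 and 101 normalised reads in peritoneal macrophages and 4.42, 19.5 and 146 in the others, a log2 fold change of 2.33 ± 0.40 (adjusted p = 0.000291, 1.16 within experiment 1, where it did not pass). Acvrl1 was at 0 in both peritoneal libraries and present in all 12 others, whereas the values of Tgfbr1 and Smad3 overlapped. The ligand Tgfb1 (-0.16 ± 0.21) and the binding receptor Tgfbr2 (0.03 ± 0.33) did not pass, nor did Tgfb3 (0.35 ± 0.73). The 4 higher members became 2 without peritoneal library 1 or 2, and the 7 lower became 3 without peritoneal library 1 and 2 with voom weights. Within experiment 1 the 3 higher became 6 under each of quantile normalization, equal totals and voom weights, and 5 without Kupffer library 1 or 2.

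Enzymes of the lipoxygenase and prostacyclin branches of eicosanoid synthesis were higher in peritoneal macrophages, and the enzyme that inactivates prostaglandins was lower. Of 22 tested members, 7 rose, 5 fell and 10 did not pass (median log2 fold change 0.32, against -0.15 over all tested genes). Of the same members, 7 rose and 5 fell within experiment 1 (median -0.16, or -0.06 with members at 0 in both peritoneal libraries at their bound, against -0.18 over all). All tested genes gave 7.16% higher and 13.8% lower, and 7.01% and 14.4% within experiment 1. For Alox5, the lipoxygenase that opens the leukotriene pathway, the values were 369 and 342 normalised reads in the peritoneal libraries and 5.20, 31.3 and 262 in the others, and the log2 fold change was 3.50 ± 0.27 (adjusted p = 3.47e-08, 3.28 within experiment 1). Ltc4s, leukotriene C synthase, stood at 309 and 480.2 normalised reads in peritoneal macrophages, against 2.92, 65.9 and 629 in the others, with a log2 fold change of 2.22 ± 0.44 (adjusted p = 0.00104, 1.72 within experiment 1). Hpgd, the dehydrogenase that inactivates prostaglandins, measured 6.30 and 9.03 normalised reads in the peritoneal libraries, against 36.5, 365 and 1386 in the others (log2 fold change -5.24 ± 0.25, adjusted p = 1.15e-10, -5.26 within experiment 1). Alox5 and Hpgd did not overlap the others, and Ltc4s did, since it averaged 607 ± 31.1 (SD, n = 2) in lung macrophages and 445 ± 98.6 in microglia. The cyclooxygenase Ptgs1 (0.49 ± 0.23), the phospholipase Pla2g4a (0.28 ± 0.47) and the leukotriene hydrolase Lta4h (-0.70 ± 0.39) did not pass. The 5 lower members became 2 under quantile normalization, 3 with voom weights, and 2 and 3 without peritoneal library 1 and 2, and within experiment 1 2 without peritoneal library 1.

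Coagulation factors V and X were higher in peritoneal macrophages, among clotting genes that went both ways. Of 21 tested members of coagulation and fibrinolysis, 8 rose, 6 fell and 7 did not pass (median log2 fold change 0.38, against -0.15 over all tested genes). Against experiment 1, 8 rose and 5 fell (median 0.66, against -0.18 over all). Among all tested genes 7.16% rose and 13.8% fell, and 7.01% and 14.4% did within experiment 1. F10, coagulation factor X, gave 886 and 686 normalised reads in peritoneal macrophages and 0, 13.2 and 357 in the others, a log2 fold change of 5.87 ± 0.67 (adjusted p = 3.24e-06, 7.06 within experiment 1). For Thbd, thrombomodulin, the thrombin receptor that activates protein C, the values were 35.3 and 54.2 normalised reads in the peritoneal libraries and 0, 6.48 and 37.3 in the others, and the log2 fold change was 2.80 ± 0.59 (adjusted p = 0.00203, 3.31 within experiment 1). Fgl2, a fibrinogen-like prothrombinase, stood at 2.52 and 3.61 normalised reads in peritoneal macrophages, against 1.26, 22.2 and 564 in the others, with a log2 fold change of -2.96 ± 0.39 (adjusted p = 1.93e-05, -4.74 within experiment 1). F10 lay above all 12 others, which reached 357, and Thbd and Fgl2 overlapped the others. The urokinase gene Plau (-0.72 ± 0.59, -2.09 and passing within experiment 1) and the inhibitor Tfpi (0.50 ± 0.64) did not pass. The 6 lower members became 3 and 2 without peritoneal library 1 and 2 and 3 under the stricter filter, and the 5 within experiment 1 became 3 in each of these and without small intestine library 4. Plat was not analysed here.

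Matrix, lubricant and secreted protein genes were divided between higher and lower members. Of 31 tested members, 12 rose, 9 fell and 10 did not pass (median log2 fold change -0.38, or -0.06 with members at 0 in both peritoneal libraries set at their bound, against -0.15 over all tested genes). In experiment 1, 12 rose and 10 fell (median 0.66, against -0.18 over all). The shares over all tested genes were 7.16% higher and 13.8% lower, and 7.01% and 14.4% within experiment 1. Prg4, Fn1, Thbs1 and Ltbp1, given above, led the members that rose. Emilin2, an elastin microfibril protein, measured 1741 and 1259 normalised reads in the peritoneal libraries, against 2.78, 54.8 and 86.8 in the others (log2 fold change 5.34 ± 0.28, adjusted p = 2.51e-10, 5.76 within experiment 1). Lrg1, a secreted leucine-rich glycoprotein, gave 747 and 649.9 normalised reads in peritoneal macrophages and 0, 18.4 and 137 in the others, a log2 fold change of 5.53 ± 0.58 (adjusted p = 1.10e-06, 7.52 within experiment 1). Col1a2, a chain of type I collagen, was at 0 in both peritoneal libraries, against 0, 16.6 and 62.8 normalised reads in the others (at least 6.15-fold lower, adjusted p = 0.00291, at least 4.43-fold lower within experiment 1). Emilin2 and Lrg1 were above all 12 others, and Col1a2 was at 0 in both peritoneal libraries and in at least 1 other. Spp1 (osteopontin, -1.48 ± 0.74) and Lgals3 (galectin, -0.38 ± 0.20) did not pass. Within experiment 1 the 10 lower members became 6 under quantile normalization, with voom weights, and without large intestine library 2 or peritoneal library 1, and 4 without peritoneal library 2.

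Adhesion molecules also went both ways, with changes in opposite directions among integrins. Of 31 tested members, 10 rose, 11 fell and 10 did not pass (median log2 fold change -0.55, or 0.00 with members at 0 in both peritoneal libraries set at their bound, against -0.15 over all tested genes). The other populations of experiment 1 gave 8 that rose and 9 that fell (median -0.24, or 0.00 with such members at their bound, against -0.18 over all). Shares of all tested genes were 7.16% and 13.8%, and 7.01% and 14.4% within experiment 1. Itga6, the laminin-binding integrin chain, stood at 289.8 and 302 normalised reads in peritoneal macrophages, against 0, 9.63 and 101 in the others, with a log2 fold change of 4.66 ± 0.62 (adjusted p = 1.96e-05, 3.45 within experiment 1). Itgax, the integrin chain CD11c, measured 1.26 and 0 normalised reads in the peritoneal libraries, against 5.64, 137 and 307 in the others (log2 fold change -5.27 ± 0.45, adjusted p = 1.06e-07, -5.67 within experiment 1). Itgb5, a vitronectin-binding integrin chain, gave 10.1 and 17.2 normalised reads in peritoneal macrophages and 137, 302 and 576 in the others, a log2 fold change of -4.54 ± 0.25 (adjusted p = 3.80e-10, -4.55 within experiment 1). None of these overlapped the others, with Itga6 higher and Itgax and Itgb5 lower in peritoneal macrophages. Vcam1, the adhesion molecule of splenic and hepatic macrophages, was at 0 in both peritoneal libraries, against 2.21, 35.5 and 1571 normalised reads in the others (at least 83.1-fold lower, adjusted p = 6.52e-09, at least 8.83-fold lower within experiment 1). Pecam1, the junction molecule CD31, stood at 0 and 1.81 normalised reads in peritoneal macrophages, against 6.64, 41.1 and 146 in the others, with a log2 fold change of -4.55 ± 0.54 (adjusted p = 5.31e-06, -4.22 within experiment 1). Both were below all 12 others, and Selplg (the selectin ligand, 0.31 ± 0.26) and Itga5 (-0.75 ± 0.58) did not pass.

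Every tested gene of MHC class II presentation was lower in peritoneal macrophages, from the regulator Ciita to the chains and their peptide-loading chaperones. Of 12 tested members, 0 rose, 12 fell and 0 did not pass (median log2 fold change -2.98, or -2.85 with members at 0 in both peritoneal libraries set at their bound, against -0.15 over all tested genes). Set against experiment 1 alone, 0 rose and 12 fell (median -3.80, or -3.75 with such members at their bound, against -0.18 over all). Ciita, the transcriptional regulator of the locus, measured 6.30 and 8.12 normalised reads in the peritoneal libraries, against 1.85, 83.1 and 711 in the others (log2 fold change -2.95 ± 0.40, adjusted p = 2.16e-05, -3.78 within experiment 1). H2-Aa, an antigen-presenting chain, gave 252 and 319 normalised reads in peritoneal macrophages and 217, 1383 and 18130 in the others, a log2 fold change of -2.74 ± 0.33 (adjusted p = 5.49e-06, -3.82 within experiment 1). For H2-DMa, a chain of the peptide-loading chaperone, the values were 49.1 and 74.9 normalised reads in the peritoneal libraries and 109, 379 and 1838 in the others, and the log2 fold change was -3.08 ± 0.30 (adjusted p = 5.34e-07, -4.00 within experiment 1). H2-DMa was below all 12 others, whereas Ciita and H2-Aa overlapped microglia or lung macrophages. Ciita averaged 3.75 ± 2.68 (SD, n = 2) in microglia, 4.98 ± 0.785 in lung macrophages and 691 ± 27.9 in small intestine macrophages. H2-DMb1, the other chaperone chain, stood at 49.8 and 33.9 normalised reads in peritoneal macrophages, against 144, 270.3 and 1435 in the others, with a log2 fold change of -3.12 ± 0.28 (adjusted p = 2.21e-07, -3.72 within experiment 1). Taken by population, 5 of the 12 fell against microglia, 7 against lung macrophages, 10 against Kupffer cells and 11 against splenic macrophages, with medians of -1.01, -1.73, -2.35 and -2.22. Of all tested genes 11.8%, 12.6%, 11.6% and 14.6% fell in these comparisons. Against small and large intestine macrophages 12 and 12 fell, with medians of -4.78 and -5.11, where 12.5% and 12.8% of all genes fell. In none of the 6 did a member rise, where 5.12% to 9.85% of all genes did. Called lower against each of the 6 populations were 4 members, as were 1.29% of all genes, and 6 lay below all 12 others, as did 4.18%. The count was 11 with equal totals or voom weights. Reads of near-identical H2 genes may be shared between them.

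Against the mean of the 6 populations cytokine genes were lower in peritoneal macrophages or did not pass, and chemokine genes changed in both directions. Of 11 tested cytokine genes, 0 rose, 6 fell and 5 did not pass (median log2 fold change -1.33, or -0.72 with members at 0 in both peritoneal libraries set at their bound, against -0.15 over all tested genes). Of the same members, 0 rose and 6 fell within experiment 1 (median -1.56, or -1.25 with such members at their bound, against -0.18 over all). Of 21 chemokine genes, 3 rose, 8 fell and 10 did not pass (median log2 fold change -1.57, or -1.54 with members at 0 in both peritoneal libraries set at their bound, against -0.15 over all tested genes). Against experiment 1, 4 rose and 11 fell (median -3.07, against -0.18 over all). The shares of all tested genes were 7.16% higher and 13.8% lower, and 7.01% and 14.4% within experiment 1. Il1b, an inflammatory interleukin, measured 6.30 and 3.61 normalised reads in the peritoneal libraries, against 5.56, 271 and 777 in the others (log2 fold change -4.68 ± 0.51, adjusted p = 1.73e-06, -4.70 within experiment 1). Il1rn, the antagonist of its receptor, gave 1.26 and 1.81 normalised reads in peritoneal macrophages and 0, 64.3 and 203 in the others, a log2 fold change of -3.54 ± 0.39 (adjusted p = 2.43e-06, -3.31 within experiment 1). For Il18, an interleukin matured by the inflammasome, the values were 40.3 and 26.2 normalised reads in the peritoneal libraries and 33.7, 80.8 and 384 in the others, and the log2 fold change was -1.63 ± 0.32 (adjusted p = 0.000964, -0.55 within experiment 1, where it did not pass). The peritoneal values of all 3 lay at the low end of the others and overlapped them. Ccl5, a chemokine of T cells and monocytes, stood at 7.56 and 0 normalised reads in peritoneal macrophages, against 15.0, 86.2 and 303 in the others, with a log2 fold change of -4.68 ± 0.67 (adjusted p = 4.44e-05, -4.56 within experiment 1). Cxcl10, an interferon-induced chemokine, measured 0 and 3.61 normalised reads in the peritoneal libraries, against 3.16, 74.1 and 218 in the others (log2 fold change -4.73 ± 0.55, adjusted p = 3.68e-06, -5.30 within experiment 1). Cxcl13, the chemokine that draws B cells to serous cavities, gave 169 and 123 normalised reads in peritoneal macrophages and 0, 0.779 and 125 in the others, a log2 fold change of 5.11 ± 0.70 (adjusted p = 2.53e-05, 6.15 within experiment 1). Ccl5 was below all 12 others, while Cxcl10 and Cxcl13 overlapped them. Against small and large intestine macrophages 12 and 12 chemokine genes fell, and against microglia 5 rose and 5 fell. Over all tested genes 12.5%, 12.8% and 11.8% fell in these comparisons, and 9.58% rose against microglia. Of the 11 cytokine genes 0 rose and 2 fell against microglia (median -0.14), and 1 and 3 against splenic macrophages (median 0.0). The counts were 0 and 6 against Kupffer cells, 1 and 6 against lung, 0 and 6 against small intestine and 1 and 5 against large intestine macrophages. In the 6 comparisons 5.12% to 9.85% of all genes rose and 11.6% to 14.6% fell. Within experiment 1 the 6 lower cytokines became 2 and 3 without peritoneal library 1 and 2. Without peritoneal library 1 the 8 lower chemokines became 5 and the 4 higher within experiment 1 became 2, and voom weights gave 5 higher.

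Among chemokine receptors equal numbers were higher and lower. Of 16 tested, 4 rose, 4 fell and 8 did not pass (median log2 fold change -0.47, or -0.04 with members at 0 in both peritoneal libraries set at their bound, against -0.15 over all tested genes). In experiment 1, 3 rose and 7 fell (median -0.49, against -0.18 over all). Among all tested genes 7.16% rose and 13.8% fell, and 7.01% and 14.4% did within experiment 1. For Ackr3, an atypical, scavenging chemokine receptor, the values were 27.7 and 33.4 normalised reads in the peritoneal libraries and 0, 0.470 and 4.38 in the others, and the log2 fold change was 4.08 ± 0.47 (adjusted p = 4.17e-06, 4.05 within experiment 1). Ccr1, a receptor of inflammatory chemokines, stood at 154 and 239 normalised reads in peritoneal macrophages, against 0, 40.8 and 263 in the others, with a log2 fold change of 3.08 ± 0.41 (adjusted p = 1.90e-05, 0.86 within experiment 1, where it did not pass). Ccr7, the receptor that guides cells to lymph nodes, was at 0 in both peritoneal libraries, against 0.927, 9.41 and 47.6 normalised reads in the others (at least 4.56-fold lower, adjusted p = 0.00304, at least 2.48-fold lower within experiment 1). Ackr3 was above and Ccr7 below all 12 others, and Ccr1 overlapped them. The monocyte receptor Ccr2 (-0.93 ± 0.37, -2.32 and passing within experiment 1) and the fractalkine receptor Cx3cr1 (0.09 ± 0.41, -2.59 and passing within experiment 1) did not pass against the 6 populations. The 4 higher members became 2 without peritoneal library 1 or 2, and the lower became 2 without peritoneal library 2. Within experiment 1 the 3 higher became 0 without peritoneal library 1, 1 in a fit of its 8 macrophage libraries alone and 5 with voom weights, and the 7 lower became 4 without peritoneal library 2.

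Immediate early and heat shock genes, which many stimuli, tissue dissociation among them, are known to induce rapidly, were lower in peritoneal macrophages or did not pass. Of 23 tested members, 0 rose, 12 fell and 11 did not pass (median log2 fold change -1.51, against -0.15 over all tested genes). The other populations of experiment 1 gave 0 that rose and 15 that fell (median -1.79, against -0.18 over all). Fos, a subunit of the AP-1 factor, gave 81.9 and 21.7 normalised reads in peritoneal macrophages and 128, 599.7 and 1459 in the others, a log2 fold change of -3.77 ± 0.42 (adjusted p = 2.72e-06, -4.11 within experiment 1). For Jun, another AP-1 subunit, the values were 35.3 and 28.9 normalised reads in the peritoneal libraries and 74.8, 382 and 1021 in the others, and the log2 fold change was -3.33 ± 0.35 (adjusted p = 1.06e-06, -4.00 within experiment 1). Hspa1a, an inducible heat shock chaperone, stood at 20.2 and 11.7 normalised reads in peritoneal macrophages, against 5.69, 245 and 831 in the others, with a log2 fold change of -2.99 ± 0.54 (adjusted p = 0.000470, -4.69 within experiment 1). Fos and Jun were below all 12 others, and Hspa1a, which has a near-identical copy, overlapped splenic and lung macrophages. Against splenic macrophages 2 and 6 (median 0.39) members rose and fell, against lung macrophages 0 and 5 (median -1.02) and against Kupffer cells 0 and 8 (median -1.14). Against microglia the counts were 1 and 11 (median -1.75), against small intestine macrophages 0 and 15 (median -2.30) and against large intestine macrophages 0 and 11 (median -1.94). Over all tested genes 5.12% to 9.85% rose and 11.6% to 14.6% fell in the 6 comparisons. Ier2 (0.00 ± 0.33) and Atf3 (-0.81 ± 0.44, -1.79 and passing within experiment 1) did not pass against the 6 populations.

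Against the mean of the 6 populations lysosomal hydrolase genes were lower or did not pass, and none rose. Of 25 tested, 0 rose, 15 fell and 10 did not pass (median log2 fold change -1.45, against -0.15 over all tested genes). Set against experiment 1 alone, 0 rose and 11 fell (median -1.13, or -0.99 with members at 0 in both peritoneal libraries at their bound, against -0.18 over all). Ctss, a cathepsin that trims the invariant chain of MHC class II, measured 159 and 293 normalised reads in the peritoneal libraries, against 544, 1397 and 3042 in the others (log2 fold change -2.60 ± 0.25, adjusted p = 4.99e-07, -2.95 within experiment 1). Ctsb, a cysteine cathepsin, gave 422 and 402 normalised reads in peritoneal macrophages and 645, 1518 and 2678 in the others, a log2 fold change of -1.84 ± 0.18 (adjusted p = 6.58e-07, -1.55 within experiment 1). For Ctsh, an aminopeptidase cathepsin, the values were 141 and 135 normalised reads in the peritoneal libraries and 221, 579.8 and 840 in the others, and the log2 fold change was -1.86 ± 0.21 (adjusted p = 3.45e-06, -2.33 within experiment 1). All 3 were below all 12 others. Ctsd (an aspartic cathepsin, -0.87 ± 0.25) and Gusb (a glucuronidase, 0.14 ± 0.27) did not pass. Members lower against a single population numbered 13 for microglia, 11 for splenic macrophages, 11 for Kupffer cells, 14 for lung macrophages, 9 for small intestine and 13 for large intestine macrophages. Members higher against a single population numbered 3 for splenic and 2 for lung macrophages, and 1 each for Kupffer cells and small intestine macrophages. Against microglia and large intestine macrophages 0 rose. Over all tested genes 5.12% to 9.85% rose and 11.6% to 14.6% fell in these comparisons. Of 23 tested genes of lipid uptake and storage, 8 rose, 6 fell and 9 did not pass (median log2 fold change 0.12, against -0.15 over all tested genes). Of the same members, 9 rose and 4 fell within experiment 1 (median 0.34, against -0.18 over all). Fabp4, a fatty acid binding protein, stood at 232 and 291 normalised reads in peritoneal macrophages, against 0.582, 7.37 and 179 in the others, with a log2 fold change of 4.66 ± 0.52 (adjusted p = 2.78e-06, 6.37 within experiment 1). Fabp7, another fatty acid binding protein, measured 37.8 and 23.5 normalised reads in the peritoneal libraries, against 0, 0 and 90.4 in the others (log2 fold change 3.75 ± 0.52, adjusted p = 3.36e-05, 4.52 within experiment 1). Mgll, monoacylglycerol lipase, gave 1.26 and 0 normalised reads in peritoneal macrophages and 13.4, 150.2 and 1255 in the others, a log2 fold change of -6.32 ± 0.30 (adjusted p = 1.15e-10, -5.12 within experiment 1). Fabp4 was above and Mgll below all 12 others, and Fabp7 overlapped them. Against microglia 11 of the 23 rose and 2 fell, and against lung macrophages 4 rose and 10 fell. Over all tested genes 9.58% and 9.48% rose and 11.8% and 12.6% fell against these 2 populations. Within experiment 1 the 4 lower lipid genes became 1 without peritoneal library 1.

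Receptors for dying cells, microbes and complement changed in both directions. Of 25 tested receptors and bridging proteins for apoptotic cells and modified lipoproteins, 6 rose, 9 fell and 10 did not pass (median log2 fold change -0.44, against -0.15 over all tested genes). Against experiment 1, 6 rose and 6 fell (median -0.40, or 0.00 with members at 0 in both peritoneal libraries at their bound, against -0.18 over all). For this and the next lists the shares of all tested genes were 7.16% higher and 13.8% lower, and 7.01% and 14.4% within experiment 1. For Timd4, a receptor of phosphatidylserine, the values were 645 and 366 normalised reads in the peritoneal libraries and 0, 15.5 and 352 in the others, and the log2 fold change was 4.84 ± 0.51 (adjusted p = 1.13e-06, 5.37 within experiment 1). Msr1, a class A scavenger receptor, stood at 751 and 533 normalised reads in peritoneal macrophages, against 5.56, 68.8 and 197 in the others, with a log2 fold change of 3.74 ± 0.28 (adjusted p = 1.91e-08, 3.46 within experiment 1). Cd163, the haemoglobin-haptoglobin scavenger receptor, measured 1.26 and 0.903 normalised reads in the peritoneal libraries, against 0, 65.5 and 409.6 in the others (log2 fold change -3.87 ± 0.55, adjusted p = 4.38e-05, -2.85 within experiment 1). Timd4 and Msr1 were above all 12 others, and Cd163 overlapped them. Mertk (a receptor kinase for apoptotic cells, -0.13 ± 0.27, 1.02 and passing within experiment 1) and Stab1 (stabilin, -1.27 ± 0.63, -2.76 and passing within experiment 1) did not pass against the 6 populations. Of 27 tested genes of pattern recognition, 5 rose, 6 fell and 16 did not pass (median log2 fold change 0.04, against -0.15 over all tested genes). In experiment 1, 5 rose and 6 fell (median 0.13, against -0.18 over all). Naip1, an inflammasome receptor whose family has near-identical copies, gave 101 and 119 normalised reads in peritoneal macrophages and 0, 1.73 and 29.3 in the others, a log2 fold change of 5.08 ± 0.71 (adjusted p = 3.60e-05, 4.94 within experiment 1). For Pycard, the inflammasome adaptor, the values were 1483 and 1343 normalised reads in the peritoneal libraries and 128, 330 and 548 in the others, and the log2 fold change was 2.20 ± 0.21 (adjusted p = 3.02e-07, 1.65 within experiment 1). Clec4d, a lectin receptor of mycobacterial glycolipid, stood at 107 and 137 normalised reads in peritoneal macrophages, against 0, 2.05 and 24.4 in the others, with a log2 fold change of 5.22 ± 0.61 (adjusted p = 4.26e-06, 5.68 within experiment 1). All 3 were above all 12 others. Tlr2 (0.09 ± 0.30) and Tlr4 (-0.29 ± 0.52), receptors of bacterial lipoprotein and lipopolysaccharide, did not pass. The 6 lower members became 2 without peritoneal library 1 or 2. Of 20 tested complement genes, 6 rose, 5 fell and 9 did not pass (median log2 fold change 0.03, against -0.15 over all tested genes). The other populations of experiment 1 gave 5 that rose and 5 that fell (median -0.30, or -0.15 with members at 0 in both peritoneal libraries at their bound, against -0.18 over all). C4b, a central complement component, measured 471 and 389 normalised reads in the peritoneal libraries, against 1.77, 10.8 and 174 in the others (log2 fold change 4.79 ± 0.59, adjusted p = 8.88e-06, 5.30 within experiment 1). C6, a component of the membrane attack complex, was at 0 in both peritoneal libraries, against 0, 13.5 and 211 normalised reads in the others (at least 21.3-fold lower, adjusted p = 0.000164, at least 3.33-fold lower within experiment 1). C4b was above all 12 others and C6 was at 0 in both peritoneal libraries. C1qa (-0.76 ± 0.34, -2.15 and passing within experiment 1) and C1qb (0.58 ± 0.31), chains of the first component, did not pass against the 6 populations. The 5 lower within experiment 1 became 2 under quantile normalization and without peritoneal library 1 or 2, and 3 with voom weights, the larger pseudocount, or without microglia library 1 or small intestine library 4.

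**Figure D2:**
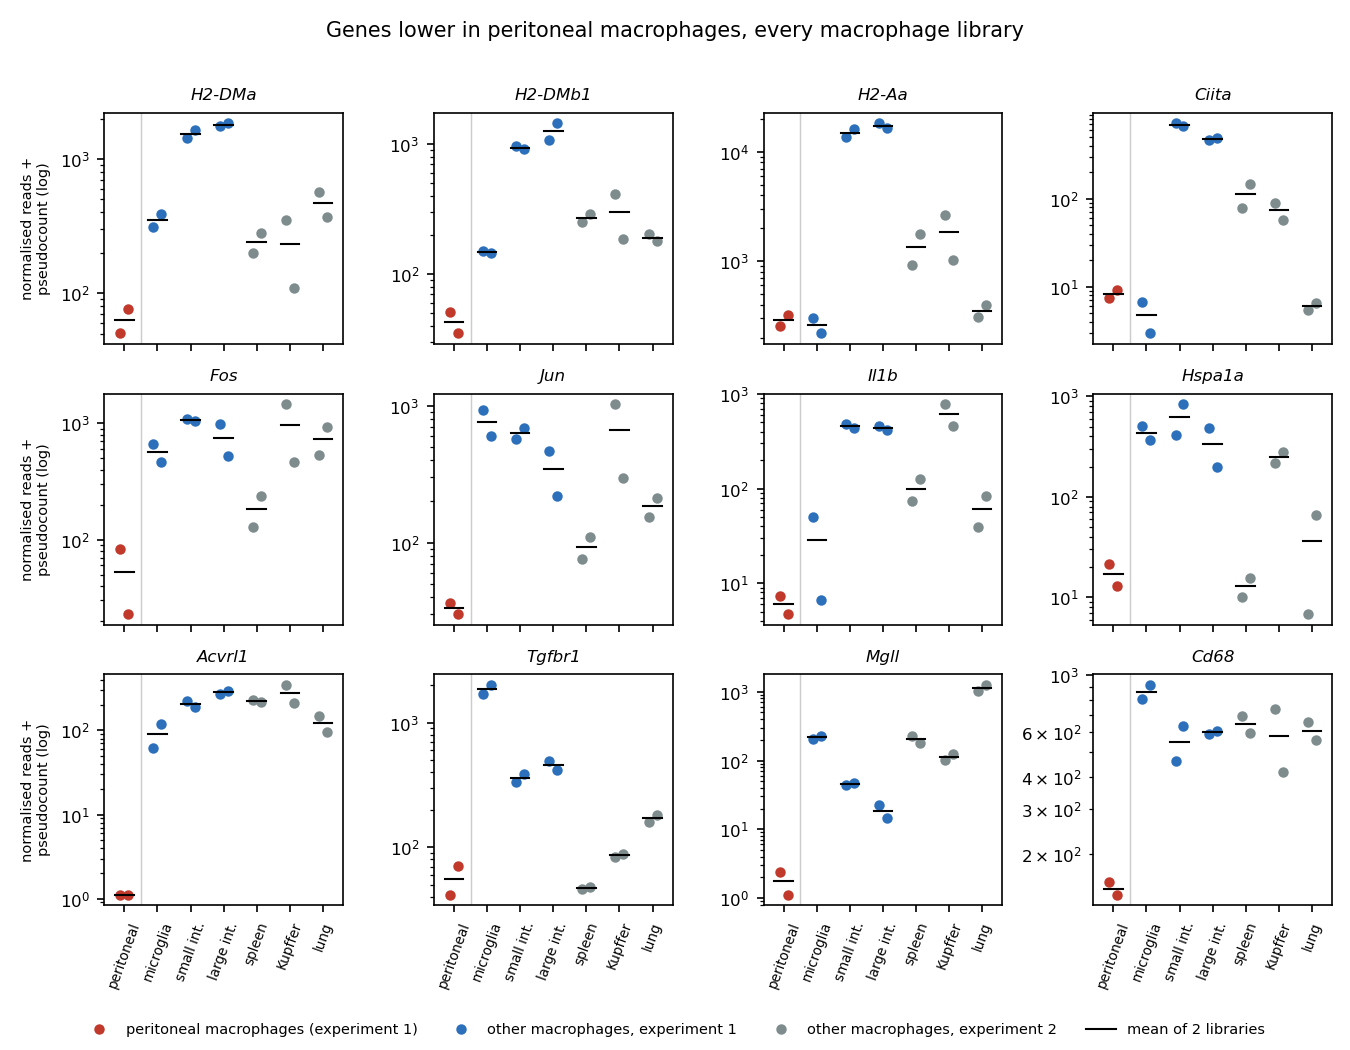
Levels of 12 genes that were lower in peritoneal macrophages, 1 panel a gene, as normalised reads plus the pseudocount of 1.11 on a log axis, with 1 point a library, peritoneal macrophages in red, other macrophages of experiment 1 in blue and of experiment 2 in grey, and a bar at the mean of 2 libraries. Acvrl1 is at 0 in both peritoneal libraries against 61.1 or more elsewhere, whereas Ciita and H2-Aa lie beside microglia and lung macrophages and Hspa1a beside splenic and lung macrophages.

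The 15 genes with the largest fall that were also called against experiment 1 and lay below all 12 others include signalling, cytoskeletal and haemoglobin genes. For Asb2, a subunit of a ubiquitin ligase, the values were 2.52 and 0 normalised reads in the peritoneal libraries and 3.32, 183 and 877 in the others, and the log2 fold change was -6.24 ± 0.51 (adjusted p = 5.49e-08, -7.10 within experiment 1). Parvg, a parvin that links integrins to actin, stood at 0 and 1.81 normalised reads in peritoneal macrophages, against 29.2, 95.2 and 484 in the others, with a log2 fold change of -5.89 ± 0.29 (adjusted p = 1.27e-10, -5.50 within experiment 1). Actn1, the actin crosslinker alpha-actinin, measured 20.2 and 0 normalised reads in the peritoneal libraries, against 22.6, 332 and 4073 in the others (log2 fold change -5.66 ± 0.59, adjusted p = 1.14e-06, -2.99 within experiment 1). None of these overlapped the others. Cd22, a sialic acid binding inhibitory receptor known from B cells, was at 0 in both peritoneal libraries, against 23.2, 54.3 and 124 normalised reads in the others (at least 19.1-fold lower, adjusted p = 1.04e-07, at least 14.3-fold lower within experiment 1). Ly6a, the surface antigen Sca-1, was at 0 in both peritoneal libraries, against 12.2, 54.2 and 189.8 normalised reads in the others (at least 23.4-fold lower, adjusted p = 1.02e-07, at least 23.4-fold lower within experiment 1). Lilra5, an activating leukocyte receptor, was at 0 in both peritoneal libraries, against 16.9, 96.2 and 269.5 normalised reads in the others (at least 35.2-fold lower, adjusted p = 2.15e-08, at least 24.1-fold lower within experiment 1). Acvrl1, Mgll and Vcam1 belong to the same 15, as do Cd300c2 (an activating receptor, -5.62 ± 0.43) and Tbc1d9 (at least 15.6-fold lower). The haemoglobin genes Hba-a1, Hba-a2, Hbb-b2 and Hbb-bt share reads with near-identical copies and are taken up with the erythroid markers.

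Interferon-stimulated genes gave different counts against different populations. Of 22 tested, 1 rose, 10 fell and 11 did not pass (median log2 fold change -0.80, against -0.15 over all tested genes). Set against experiment 1 alone, 3 rose and 7 fell (median -0.45, or -0.32 with members at 0 in both peritoneal libraries at their bound, against -0.18 over all). Against Kupffer cells 0 rose and 16 fell (median -2.69), whereas against lung macrophages 9 rose and 0 fell (median 1.33). The counts were 6 and 4 against microglia, 2 and 12 against splenic, 2 and 9 against small intestine and 2 and 5 against large intestine macrophages. Over all tested genes 5.12% to 9.85% rose and 11.6% to 14.6% fell in the 6 comparisons. Ifit2, an interferon-induced inhibitor of translation, measured 1.26 and 0.903 normalised reads in the peritoneal libraries, against 0.632, 24.1 and 91.9 in the others (log2 fold change -3.11 ± 0.56, adjusted p = 0.000463, -3.41 within experiment 1). Rtp4, an interferon-induced chaperone, gave 267 and 253 normalised reads in peritoneal macrophages and 8.85, 79.9 and 353 in the others, a log2 fold change of 1.82 ± 0.25 (adjusted p = 2.50e-05, 1.79 within experiment 1). Both overlapped the others. Irf7 (the master regulator of the response, 0.32 ± 0.23, 1.26 and passing within experiment 1) did not pass against the 6 populations. The 10 lower members became 6 without peritoneal library 1 or 2, and within experiment 1 the 7 became 4 without peritoneal library 1 or with voom weights. The single higher member became 2 with equal totals, with voom weights, and without Kupffer library 2, lung library 2 or microglia library 1.

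Cell cycle genes also gave different counts by population. Of 26 tested, 2 rose, 9 fell and 15 did not pass (median log2 fold change -0.82, or -0.69 with members at 0 in both peritoneal libraries set at their bound, against -0.15 over all tested genes). Of the same members, 3 rose and 4 fell within experiment 1 (median -0.47, or -0.43 with such members at their bound, against -0.18 over all). All tested genes gave 7.16% higher and 13.8% lower, and 7.01% and 14.4% within experiment 1. The 2 higher members, and both counts within experiment 1, were near these shares. Against microglia 8 rose and 1 fell (median 1.37), and against lung macrophages 1 rose and 10 fell (median -1.19). The higher and lower counts were 1 and 9 against splenic macrophages, 2 and 4 against Kupffer cells, 1 and 7 against small intestine and 1 and 10 against large intestine macrophages. Of all tested genes 5.12% to 9.85% rose and 11.6% to 14.6% fell in these 6 comparisons. The counts against Kupffer cells were near the shares of all genes there, 6.71% and 11.6%. For Ccnd2, a D-type cyclin, the values were 1.26 and 8.12 normalised reads in the peritoneal libraries and 0, 326 and 808 in the others, and the log2 fold change was -4.82 ± 0.37 (adjusted p = 2.46e-08, -3.53 within experiment 1). The topoisomerase gene Top2a (0.87 ± 0.48) and the kinase gene Cdk1 (1.30 ± 0.51, 1.68 and passing within experiment 1) did not pass against the 6 populations. The 9 lower members became 1 without peritoneal library 1 and 5 with voom weights, and the 4 within experiment 1 became 1 without peritoneal library 1.

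Extracellular nucleotides and arginine are handled by further listed genes. Of 15 tested genes of purinergic signalling, 4 rose, 4 fell and 7 did not pass (median log2 fold change 0.40, against -0.15 over all tested genes). Against experiment 1, 4 rose and 5 fell (median -0.07, against -0.18 over all). For this and the next list the shares of all tested genes were 7.16% higher and 13.8% lower, and 7.01% and 14.4% within experiment 1. P2rx1, an ATP-gated channel, stood at 66.8 and 87.6 normalised reads in peritoneal macrophages, against 0, 3.21 and 47.0 in the others, with a log2 fold change of 3.86 ± 0.53 (adjusted p = 2.81e-05, 2.37 within experiment 1). Nt5e, the ectonucleotidase CD73, which makes adenosine, measured 105 and 99.3 normalised reads in the peritoneal libraries, against 0, 1.25 and 7.75 in the others (log2 fold change 5.36 ± 0.53, adjusted p = 6.27e-07, 5.87 within experiment 1). P2ry6, a receptor of uridine nucleotides, gave 23.9 and 6.32 normalised reads in peritoneal macrophages and 3.99, 258 and 774 in the others, a log2 fold change of -3.40 ± 0.39 (adjusted p = 3.56e-06, -5.18 within experiment 1). P2rx1 and Nt5e were above all 12 others, and P2ry6 overlapped them. P2rx7 (0.40 ± 0.62) and P2ry12 (the microglial ADP receptor, 0.51 ± 0.43) did not pass. Of 11 tested genes of arginase and alternative activation, 3 rose, 5 fell and 3 did not pass (median log2 fold change -0.96, or -0.70 with members at 0 in both peritoneal libraries set at their bound, against -0.15 over all tested genes). In experiment 1, 2 rose and 6 fell (median -1.43, or -1.11 with such members at their bound, against -0.18 over all). For Mrc1, the mannose receptor, the values were 1.26 and 8.12 normalised reads in the peritoneal libraries and 1.85, 217 and 397 in the others, and the log2 fold change was -4.71 ± 0.54 (adjusted p = 3.61e-06, -3.72 within experiment 1). Chil3, a chitinase-like protein of lung macrophages, was at 0 in both peritoneal libraries, against 0, 33.2 and 8072 normalised reads in the others (at least 335-fold lower, adjusted p = 3.84e-05, at least 7.20-fold lower within experiment 1). Arg1, given above, rose while these fell. The mean of the 6 populations was set for Chil3 by lung macrophages, which averaged 6372 ± 2404 (SD, n = 2). The 5 lower members became 3 without peritoneal library 2.

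**Figure D3:**
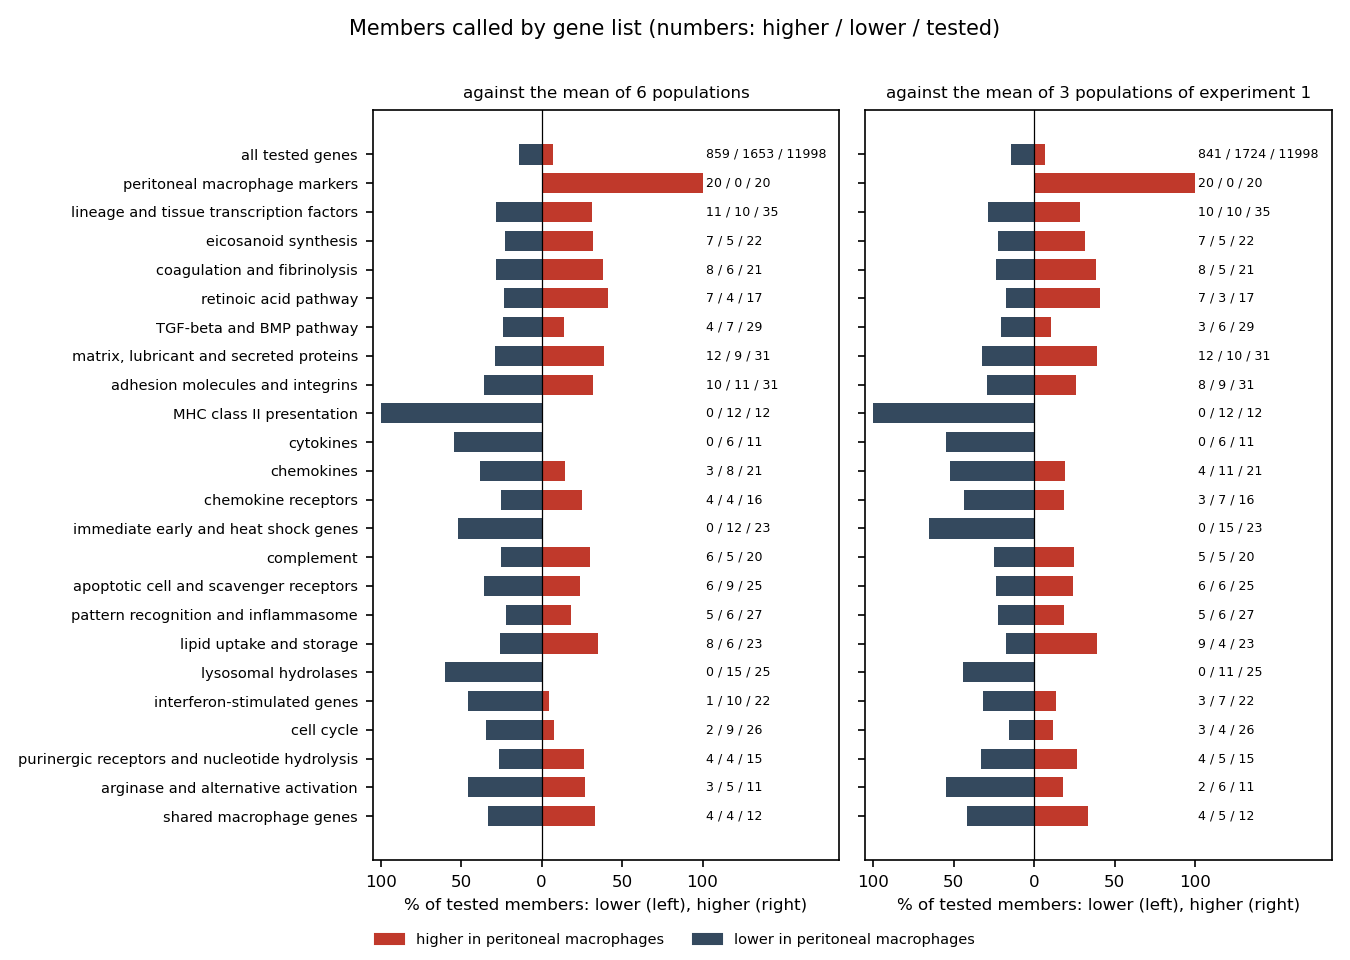
Share of the tested members of each gene list called higher (red, right of 0) or lower (dark, left of 0) in peritoneal macrophages, in percent, against the mean of the 6 other populations (left) and of the 3 of experiment 1 (right), with the numbers higher, lower and tested beside the bars. The top row, all 11998 tested genes, gives the background of 859 higher and 1653 lower.

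**Figure D4:**
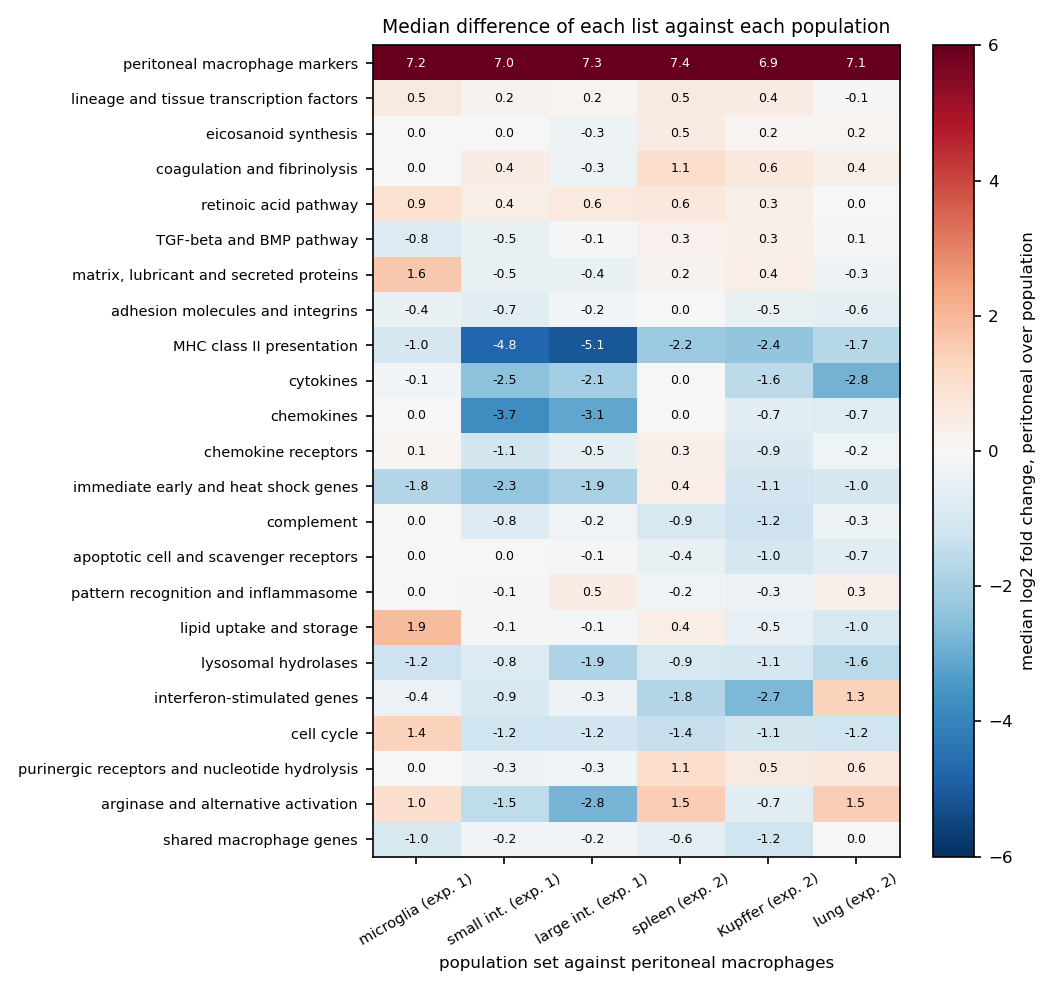
Median log2 fold change of the tested members of each list in peritoneal macrophages against each of the 6 populations, as coloured cells with their values. MHC class II presentation is lowest against small and large intestine macrophages, at -4.78 and -5.11, and interferon-stimulated genes lie at -2.69 against Kupffer cells and 1.33 against lung macrophages.

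Markers of other cells that a peritoneal sort could hold were listed as well, and of the mast cell markers the histamine enzyme gene Hdc was higher in peritoneal macrophages. Summed levels are given in normalised reads, and their part in the results above was not tested. Of all tested genes 7.16% rose and 13.8% fell (median -0.15), and 7.01% and 14.4% did within experiment 1. Of the mast cell markers, 1 of 2 rose and 0 fell (median 2.92, with 1 and 0 within experiment 1), and the sum was 117 and 95.7 in the peritoneal libraries, against 0, 5.27 and 15.5 in the others. Hdc, histidine decarboxylase, which makes histamine in mast cells and granulocytes, measured 111 and 77.6 normalised reads in the peritoneal libraries, against 0, 3.22 and 9.96 in the others (log2 fold change 4.74 ± 0.47, adjusted p = 6.20e-07, 5.75 within experiment 1). Hdc was above all 12 others and was read in neutrophils at a mean of 879. It made up most of the mast cell sum. Of the 7 mast cell markers in the data, 5 were below the filter and 3 were at 0 in both peritoneal libraries. Without peritoneal library 1 or without the filter on low values a second mast cell gene was called higher. Among markers of the smaller peritoneal population and of dendritic cells, 1 of 11 rose and 2 fell (median -0.90, or -0.70 with the 3 members at 0 at their bound, with 0 and 7 within experiment 1), and the sum was 333 and 373 in the peritoneal libraries, against 219, 767 and 11755 in the others. The single higher member was called neither in a fit that left out a peritoneal library nor with the smaller pseudocount, voom weights gave 2, and the 7 lower within experiment 1 became 3 and 4 without peritoneal library 1 and 2 and 4 with the larger pseudocount. Ccr7 (at least 4.56-fold lower) fell, and Zbtb46 (a dendritic cell factor, -0.70 ± 0.79) and Retnla (0.31 ± 0.66) did not pass.

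Lymphocyte, granulocyte and tissue cell markers were lower in peritoneal macrophages or did not pass. Of all tested genes 7.16% rose and 13.8% fell (median -0.15), and 7.01% and 14.4% did within experiment 1 (median -0.18). The 1 of 8 T and NK cell and 2 of 13 neutrophil markers lower within experiment 1 were near that share. For B cell markers 0 of 8 rose and 3 fell (median -1.86, or -1.20 with the 4 members at 0 at their bound), against 0 and 2 within experiment 1, with a sum of 18.3 and 23.5 in the peritoneal libraries, against 118, 284 and 508 in the others. For T and NK cell markers 0 of 8 rose and 3 fell (median -1.74, or -1.06 with the 6 members at 0 at their bound), against 0 and 1 within experiment 1, with a sum of 0.0741 and 5.42 in the peritoneal libraries, against 0, 93.7 and 269 in the others. The defining T cell genes Cd3e and Cd8a were at 0 in both peritoneal libraries. For eosinophil markers 0 of 7 rose and 4 fell (median -1.26, or -2.004 with the 5 members at 0 at their bound), against 0 and 2 within experiment 1, with a sum of 1.26 and 9.93 in the peritoneal libraries, against 25.7, 317 and 4179 in the others. For neutrophil markers 0 of 13 rose and 9 fell (median -2.32), against 0 and 2 within experiment 1, with a sum of 233 and 251 in the peritoneal libraries, against 304, 859.8 and 3380.3 in the others. S100a9, a calcium-binding protein of neutrophils, gave 0 and 0.903 normalised reads in peritoneal macrophages and 0.927, 14.8 and 598 in the others, a log2 fold change of -4.19 ± 0.59 (adjusted p = 3.74e-05, -1.22 within experiment 1, where it did not pass). The defining granule gene Mpo was at 0 in both peritoneal libraries, whereas Padi4 and Prtn3, also granulocyte genes, were among those with the largest rise. For mesothelium markers 0 of 4 rose and 3 fell (median -3.16), against 0 and 4 within experiment 1, with a sum of 9.45 and 19.9 in the peritoneal libraries, against 16.7, 308 and 2286 in the others. For fibroblast and endothelium markers 0 of 9 rose and 5 fell (median -2.21, or -2.06 with the 6 members at 0 at their bound), against 0 and 4 within experiment 1, with a sum of 80.6 and 47.8 in the peritoneal libraries, against 60.8, 143 and 473 in the others. For erythroid markers 0 of 8 rose and 5 fell (median -2.77, or -3.07 with the 6 members at 0 at their bound), against 0 and 4 within experiment 1, with a sum of 10.3 and 76.7 in the peritoneal libraries, against 307, 1709 and 16078 in the others, highest in the spleen. For Hba-a1, an alpha globin chain, the values were 9.03 and 76.7 normalised reads in the peritoneal libraries and 289, 1634 and 15031 in the others, and the log2 fold change was -6.08 ± 0.64 (adjusted p = 1.23e-06, -5.11 within experiment 1). It was below all 12 others, as was Hba-a2, whose values are identical. Without peritoneal library 1 the lower members became 2 of the eosinophil, 1 of the T and NK cell, 5 of the neutrophil, 1 of the mesothelium, and 3 each of the fibroblast and erythroid markers. Without peritoneal library 2 they became 1 of the T and NK cell and 3 each of the fibroblast and erythroid markers, and without small intestine library 4 they became 2 of the eosinophil markers. With voom weights they became 2 of the neutrophil and 2 of the eosinophil markers, and under quantile normalization 2 of the eosinophil and 1 of the T and NK cell markers. The lower T and NK cell markers became 1 with the larger and 5 with the smaller pseudocount. The 2 lower neutrophil markers of experiment 1 became 1 without peritoneal library 1 or 2, without small intestine library 4 or with no mean-variance trend. The 4 lower fibroblast and endothelium markers there became 2 and 1 without peritoneal library 1 and 2, and the single lower T and NK cell marker became 2 without large intestine library 2.

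**Figure D5:**
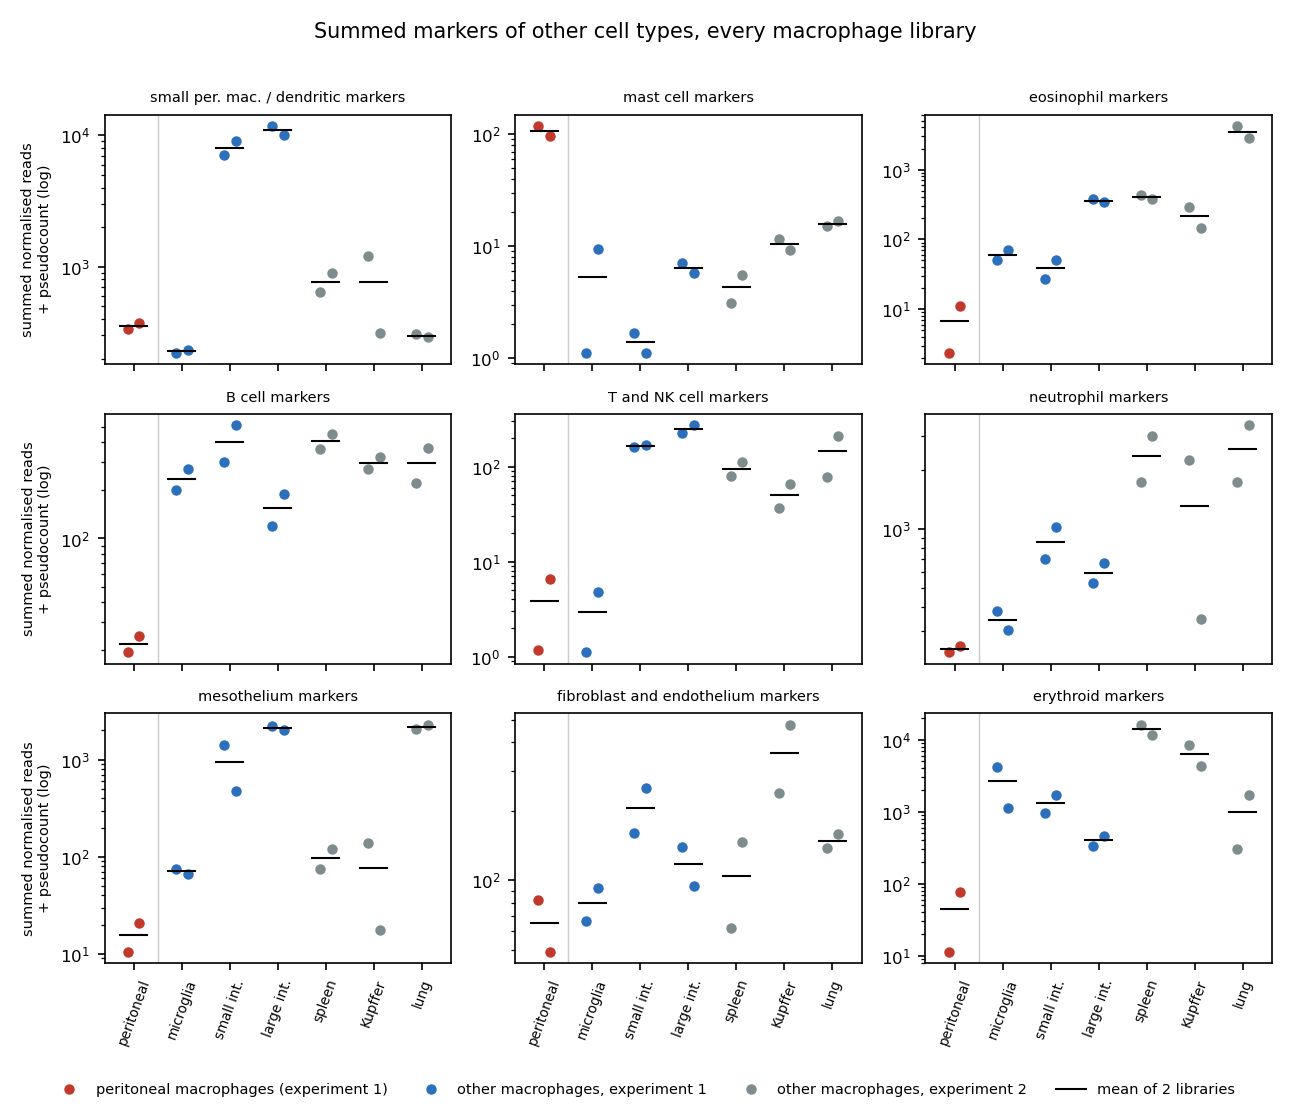
Summed level of the markers of other cell types, 1 panel a list, in normalised reads plus the pseudocount of 1.11 on a log axis, with 1 point a library in the colours red for peritoneal macrophages, blue for other macrophages of experiment 1 and grey for experiment 2. The peritoneal points are at the low end for B cell, eosinophil and erythroid markers and at the high end for mast cell markers, where they stand at 117 and 95.7. Most of that mast cell sum is the single gene Hdc, which neutrophils also express.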

How the data were processed

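RNA of 18 libraries from 9 sorted C57BL/6 populations, 2 libraries each, was measured. Per the labels' protocols, cells were sorted, and mRNA was caught with oligo(dT), indexed during reverse transcription, pooled and amplified by in vitro transcription. The authors deposited 1 table of normalised reads per transcript, a signal that is never negative, and per the submitters' processing notes it rests on TopHat and mm9, with no version named. The normalization factor is unstated. Of the values, 86.6 to 88.9% per library were whole multiples of a common step (tolerance 0.01 reads), which is too few for a count test. That step gave 588172 to 1580370 reads per library, on which the floor of 3 reads rests, and it covers counting error only.

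The 20814 transcripts held 16194 genes, and 20368 transcripts (97.9%) were matched by accession to a RefSeq table of another build, used for names only. The transcript with the highest mean stood for each of 2984 genes with several, and 1246 genes shared all their values with another gene. A gene was tested at 5.53 normalised reads or more in at least 2 libraries, which left 11998. Among the macrophage libraries some genes, such as Rarb, Cyp26a1, Tgfb2, Hal and Ackr3, reached this level in the peritoneal ones alone. Their test may thus rest on being high there. The values were analysed as log2(value + 1.11) with limma 3.58.1 under R 4.3.3, as 1 fit of 9 groups with a mean-variance trend and 9 residual degrees of freedom. Peritoneal macrophages were set against the unweighted mean of 6 populations, against that of the 3 populations of experiment 1, and against each population. P-values were adjusted after Benjamini and Hochberg over all tested genes, and calls needed an adjusted p under 0.05 and a change of at least 1 on the log2 scale. Fold changes on this scale understate the change of low genes. The procedure was tested on simulated data. Python 3.11.15, numpy 2.4.6, pandas 2.3.3 and matplotlib 3.10.9 did the rest.

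Named genes were called in the same direction in the pooled and the experiment 1 comparison with both peritoneal libraries beyond all 12 others, namely the 20 highest and the 15 lowest. Up to 8 called members of each of 32 gene lists, up to 6 members that did not pass and the 4 markers were added. Members and lists were chosen with earlier results of these data known. Which of these genes the text describes was settled after their values were seen, with a preference for those whose calls did not depend on a setting. Replicates differed beyond sampling noise (chi-square per degree of freedom 4.02 to 15.6 over the 9 populations, 6.12 for peritoneal macrophages). Nothing states whether they came from separate animals, so p-values measure only the spread between libraries. One Kupffer and one lung library carry no replicate number in their titles and were numbered in accession order. Promoter sequences are those of RefSeq, build GRCm38.p6. Alternatives covered the pseudocount, filter, scaling, weights, transcripts, libraries in the fit, a replicate block and leaving out each library. Monocytes and neutrophils entered the fit but no comparison. Genes of the lists that were not analysed here are Plat, Crabp1, Crabp2, Stra6, Itgb8, Bai1, Msx3, Tpsab1, Ms4a2, Mrgprb2, Ighm, Trac, Ly6g, Upk3b, Muc16, Bnc1 and Hbb-b1. A few members of the lists and rules above are not reported here.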

Additional observations from a re-analysis of the deposited data

How the results depend on the processing

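The pooled counts, 859 genes higher and 1653 lower in peritoneal macrophages, moved by less than 1.5 times under other pseudocounts, filters, scalings, transcript choices and sets of libraries, as did the experiment 1 counts of 841 and 1724 and the counts of 146 and 155 called against each of the 6 populations. With voom weights 1528 genes were higher in the pooled comparison and 1362 within experiment 1, and 240 were higher and 84 lower against all 6. Leaving out 1 library in turn gave 467 to 928 higher and 866 to 1784 lower genes in the pooled comparison, and 502 to 880 higher and 996 to 1832 lower within experiment 1. Against each of the 6 populations it gave 71 to 152 higher and 124 to 199 lower. The lowest of the pooled and experiment 1 counts, and the 71, came without peritoneal library 1. Without peritoneal library 2 the pooled higher count was 567 and the count against all 6 was 81. The highest of the pooled and experiment 1 counts came without Kupffer library 2. In such fits the lone library is assumed to vary like the other groups. Deviations of same-numbered libraries from their group means correlated at -0.041 to 0.013. With 2 libraries per population this cannot settle whether same-numbered libraries were paired. A fit with the replicate number as a block, with 2 residual degrees of freedom, called 181 higher and 295 lower genes in the pooled comparison, 160 and 262 within experiment 1, and 0 and 0 against all 6. At an unadjusted p under 0.05 in limma, that block fit had 101 higher and 109 lower genes against all 6, the fit without it 195 and 258, and voom 320 and 157. With 2 libraries per population, no library could be tested as standing apart from its own group. The balance of calls changed sides, with more genes higher than lower, under voom weights in the pooled comparison (1528 against 1105) and within experiment 1 (1362 against 1249). Against all 6, where 146 rose and 155 fell, the counts were 177 and 130 under quantile normalization, 190 and 123 with equal totals and 201 and 113 with the larger pseudocount, and without the filter on low values 157 and 138. No named gene called in the pooled (215) or the experiment 1 comparison (203) changed sign under the alternatives run, whereas 55 of 142 and 64 of 154 named genes that were not called did under at least 1.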

Other observations

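Bone marrow monocytes and neutrophils stood outside the comparison, and their levels in normalised reads are given per library beside those of peritoneal macrophages, with no test. Of the 146 genes higher in peritoneal macrophages than in each of the 6 other macrophage populations, 44 had a monocyte mean of at least 25% of the peritoneal mean and 52 a neutrophil mean of at least that size. Monocytes lay at or above the peritoneal mean for 5 of them and neutrophils for 25. Both kinds of cell lay below 25% of the peritoneal mean for 85 of the 146.

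The transcription factor Gata6, the growth factor Tgfb2, the latent TGF-beta binding protein Ltbp1, the secreted signal Wnt2 and the arginase Arg1 were listed at 0 in all monocyte and neutrophil libraries. Alox15 stood at 6902 and 5791 in the peritoneal libraries, 0.852 and 0 in the monocyte libraries and 20.7 and 6.59 in the neutrophil libraries. For Prg4 the values were 1907 and 1664 in the peritoneal libraries, 0 and 2.30 in the monocyte libraries and 0 and 0 in the neutrophil libraries. Selp, P-selectin, had 572 and 690.1 in the peritoneal libraries, 0 and 0 in the monocyte libraries and 8.27 and 8.79 in the neutrophil libraries.

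Other genes high in peritoneal macrophages among the macrophages were also high in 1 or both of the bone marrow populations. Padi4, which turns arginine of proteins into citrulline, stood at 1659 and 1612 in the peritoneal libraries, 68.2 and 51.4 in the monocyte libraries and 1003 and 1554 in the neutrophil libraries. For Nfe2, a transcription factor of blood cells, the values were 709 and 648 in the peritoneal libraries, 691 and 838 in the monocyte libraries and 1932 and 1897 in the neutrophil libraries. Slpi, a secreted inhibitor of serine proteases, had 475 and 495 in the peritoneal libraries, 170.5 and 206 in the monocyte libraries and 3149.9 and 3038 in the neutrophil libraries. Both neutrophil libraries lay above both peritoneal libraries for Nfe2 and Slpi, and below both for Padi4. F10, coagulation factor X, stood at 886 and 686 in the peritoneal libraries, 263 and 291 in the monocyte libraries and 27.6 and 28.6 in the neutrophil libraries. For Fn1, fibronectin, the values were 2446 and 2748 in the peritoneal libraries, 1123 and 868 in the monocyte libraries and 16.5 and 17.6 in the neutrophil libraries. F5, coagulation factor V, had 299.9 and 482 in the peritoneal libraries, 14.5 and 24.6 in the monocyte libraries and 123 and 125 in the neutrophil libraries. Both peritoneal libraries were the highest of the 6 for F10, Fn1 and F5.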
